A study of Mus musculus with 12 samples.

Results

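The gene group described here comprises 9 mouse genes of glycogen metabolism among the 55573 genes counted in the series. They were listed by name, with earlier results of these data known, so counts of members set beside shares of all genes are a description. They are regulatory subunits that bring protein phosphatase 1 to glycogen (Ppp1r3b, Ppp1r3c, Ppp1r3d, Ppp1r3e and Ppp1r3g) and 4 genes of glycogen-handling enzymes (Gys1, Gbe1, Pygb and Pygm). All 9 were found in the count table, each under a single Ensembl identifier, and all 9 passed the filter on low counts, Ppp1r3g only through the control VIP group, where it was highest. Polyadenylated RNA was sequenced from cortical cultures enriched for astrocytes, prepared from the forebrains of newborn C57BL6/J mice and grown with serum. Cultures were transduced for 5 days with a control lentivirus (pCIG3, labelled pCMV-IRES-GFP) or with pCIG3-ACREB, which expresses ACREB, a dominant-negative inhibitor of the cAMP-responsive transcription factor CREB. They then received PBS or 0.5 µM VIP, vasoactive intestinal peptide, for 30 min, and RNA was taken after 90 min of recovery. The 4 groups, control PBS, control VIP, ACREB PBS and ACREB VIP, had 3 libraries each, numbered 1 to 3. All of them carried a lentivirus, and the labels do not give the share of cells transduced. The labels also do not say whether the numbers mark separate cultures or animals. Each p-value therefore reflects the spread between libraries, whose source the labels do not give, and cannot be read as a spread between animals.

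Glycogen in the brain is held mainly in astrocytes. Glycogen synthase (Gys1 in brain and muscle) extends the glucose chains, the branching enzyme Gbe1 adds branch points, and the phosphorylases (Pygb in brain, Pygm in muscle, Pygl in liver) release glucose units. Cyclic AMP, the second messenger raised by VIP receptors, activates phosphorylase and inhibits synthase through phosphorylation, and protein phosphatase 1 bound to glycogen by a targeting subunit reverses both steps. In cultured cortical astrocytes VIP is known to break down glycogen at first and to raise its synthesis later.

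Ppp1r3c, also called protein targeting to glycogen, and Ppp1r3g are the members whose VIP and PBS libraries were separated in both viruses, so their upstream sequence is given first. RefSeq start sites on GRCm38.p6 were matched for 7 of the 9 members, and the 250 bases before each start were searched on both strands for TGACG, the core of the cAMP response element (CRE) to which CREB can bind, and for the full palindrome TGACGTCA. Bases that GENCODE places in an exon of the same gene are left out of the first pair of sequences. Each is printed 5′ to 3′ on the gene's strand, and capitals mark the CRE core or its complement CGTCA.
Ppp1r3c, chr19:36736654-36736854, minus strand: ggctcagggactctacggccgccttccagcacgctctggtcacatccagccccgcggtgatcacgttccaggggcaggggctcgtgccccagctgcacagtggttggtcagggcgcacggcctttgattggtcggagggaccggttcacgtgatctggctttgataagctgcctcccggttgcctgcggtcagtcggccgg
Ppp1r3g, chr13:35967656-35967852, plus strand: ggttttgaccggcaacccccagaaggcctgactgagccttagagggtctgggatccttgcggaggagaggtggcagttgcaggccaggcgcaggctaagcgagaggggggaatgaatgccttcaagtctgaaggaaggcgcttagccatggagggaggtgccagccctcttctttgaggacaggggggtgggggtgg
Ppp1r3g CRE core, chr13:35967856-35967880, plus strand: gggaggacctTGACGtgctctagtg
Ppp1r3d first CRE core, chr2:178414671-178414695, minus strand: tgaacacacgTGACGaggttcccgg
Ppp1r3d second CRE core, chr2:178414517-178414541, minus strand: cggcgggcggCGTCAcgaggggcgg
Pygb CRE core, chr2:150786654-150786678, plus strand: acagcctgatTGACGggctctttct

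The short stretches show every CRE core found in the members. The window of Ppp1r3c held 0 CRE cores, and those of Gys1, Gbe1 and Pygm also held 0. The CRE core of Ppp1r3g began 40 bases before the RefSeq start and lay inside the 53 bases of the window that GENCODE places in an exon of this gene. GENCODE places the 5′ end of Ppp1r3g 9067 bases before the RefSeq start, so this window lies within the annotated gene. Ppp1r3d held 2 CRE cores, 222 and 68 bases before its start, and Pygb held 1, at 132 bases. The window of Ppp1r3d also holds exonic bases of its neighbour Fam217b. Of all 32851 promoter windows of the same length in the table, 17.8% held at least 1 CRE core and 1.55% held the full palindrome, which was found in 0 of the 7 members. Ppp1r3b and Ppp1r3e had no entry. These matches are letters only, and no binding was measured.

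Total counts ran from 16571398 to 20529238 per library. The label of the cultures was checked against markers, as summed CPM, which are counts scaled to a common library size. The 8 astrocyte markers, among them Gfap and Slc1a3, were all at a mean of 1 CPM or more and summed to between 4962 and 6256 CPM. Microglia markers (7 of 7 at that mean level) summed to 586.5 to 1546 CPM, fibroblast and mural markers (6 of 7) to 1868 to 3006 CPM, oligodendrocyte lineage markers (6 of 7) to 422.5 to 582.2 CPM, and neuron markers (4 of 7) to 68.5 to 169.8 CPM. The markers of these lists below that level still had counts. The oligodendrocyte lineage sum was 555.9 to 582.2 CPM in control PBS and 457.6 to 483.7 CPM in control VIP, without overlap, and 507.6 to 537.4 CPM in ACREB PBS and 422.5 to 517.4 CPM in ACREB VIP. Its part in the differences of the members between these groups was not tested. Skeletal muscle markers, relevant to Pygm, summed to 2.36 CPM at most, with 0 of 6 at a mean of 1 CPM or more. Endothelium markers (1 of 5) summed to 7.07 to 18.4 CPM, and hepatocyte markers (1 of 4) to 0.584 to 18.9 CPM. Of the latter, Ttr was at 9.89 to 18.5 CPM in libraries 1 and 2 of the 4 groups and at 0.106 to 0.845 CPM in libraries 3. What lay behind that difference between numbers was not tested. In these bulk RNA samples, fewer cells of a type and less RNA per cell cannot be told apart. Control PBS library 2 stood apart. Of the variance in how its genes departed from their own means over the 12 libraries, GC content and gene length accounted for 42.6%. This was 18.6% in ACREB PBS library 2 and 0.502% to 15.8% in the remaining 10. Its values for the members are given beside the results they touch.

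**Figure D1:**
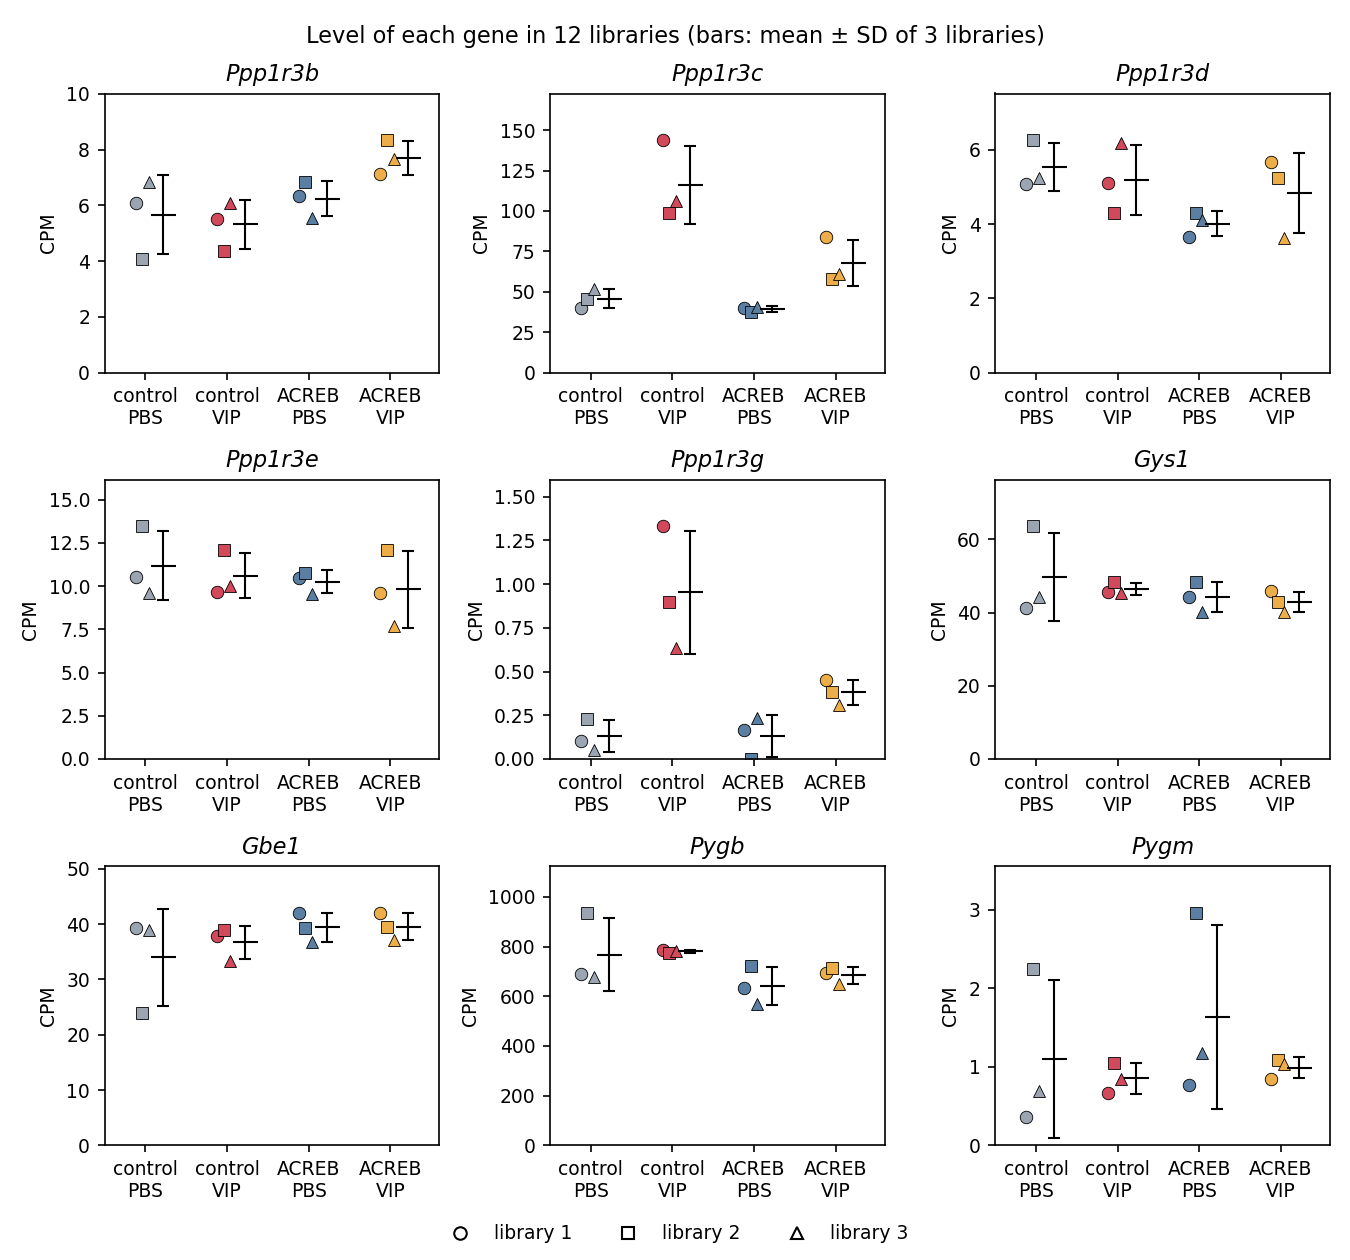
Level of each of the 9 genes in CPM (vertical axes, each from 0) in the 12 libraries of 4 groups, with symbols for libraries 1 to 3 and bars for the mean ± SD of 3 libraries. Ppp1r3c and Ppp1r3g lie higher with VIP than with PBS in every library of both viruses, while for Gbe1, Gys1, Pygb and Pygm control PBS library 2 lies apart from the other 2 libraries of its group.

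Levels of different genes were compared per exonic length, as RPKM. In control PBS, Pygb was the most abundant member at 159.6 ± 30.3 RPKM (SD, n = 3). Ppp1r3c came next at 16.8 ± 2.16 RPKM, then Gys1 at 10.4 ± 2.53, Gbe1 at 6.36 ± 1.65 and Ppp1r3e at 4.46 ± 0.803 RPKM. The ranges of Gbe1 and Ppp1r3e overlapped, so their order was not separated there. Ppp1r3d (1.70 ± 0.195 RPKM) and Ppp1r3b (0.912 ± 0.229) followed, and Ppp1r3b overlapped Pygm (0.341 ± 0.312). Ppp1r3g was last at 0.0479 ± 0.0338 RPKM. The order of the first 7 genes was the same in all 4 groups. In control VIP, Ppp1r3g (0.354 ± 0.130 RPKM) had a mean above that of Pygm (0.265 ± 0.0597), with overlapping ranges. Ppp1r3b and Pygm also overlapped in ACREB PBS, and Ppp1r3d and Ppp1r3b in ACREB VIP, and every other pair of neighbours in the order was separated in its group.

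Ppp1r3c (ENSMUSG00000067279, chromosome 19, 36731731 to 36736653, GRCm38) encodes a subunit that binds glycogen, the phosphatase, and the synthase and phosphorylase it acts on. It measured 40.0, 45.7 and 51.8 CPM in control PBS libraries 1, 2 and 3 and 143.9, 98.6 and 106.1 CPM in control VIP. With ACREB it measured 39.7, 37.4 and 40.8 CPM with PBS and 84.1, 57.7 and 61.1 CPM with VIP. The VIP libraries lay above the PBS libraries within each virus with no overlap. The 3 ACREB VIP libraries lay below the 3 control VIP libraries, while the PBS groups of the 2 viruses overlapped. Library 1 was the highest of its group with VIP in both viruses.

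Ppp1r3c rose with VIP in control cultures, from 45.8 ± 5.87 to 116.2 ± 24.3 CPM (SD, n = 3), a log2 fold change of 1.34 (SE 0.18, adjusted p = 0.00566, quasi-likelihood test of edgeR, Benjamini-Hochberg adjusted over 16761 genes). It was the 1 member of 9 past the threshold of 0.05 in that comparison, where 0.489% of all genes tested were called in either direction and 0.424% were called higher. At an unadjusted p under 0.05 edgeR had 2 members, Ppp1r3c and Ppp1r3g, against 6.42% of genes. Of these, Ppp1r3g was tested only because of its high counts in control VIP. For Ppp1r3c the ratio of VIP to PBS within numbers 1, 2 and 3 was 3.6, 2.16 and 2.05. The call held without any 1 of the 12 libraries, with log2 values from 1.16 to 1.45, and was lost when only the 6 libraries compared were fitted (1.37, edgeR adjusted p = 0.129). With the replicate number as a block the log2 fold change of Ppp1r3c was 1.32 (edgeR adjusted p = 0.0018).

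With ACREB the log2 fold change of VIP over PBS for Ppp1r3c was 0.78 (SE 0.18) and did not pass in edgeR (unadjusted p = 0.000788, adjusted p = 0.528), while DESeq2 called it (0.79, adjusted p = 0.0387). In edgeR with the replicate block it did not pass either (0.77, adjusted p = 0.202). The within-number ratios were 2.12, 1.54 and 1.5, each lower than the control ratio of the same number. With edgeR, 0 of 9 members passed in that comparison, where 0.0119% of genes were called. At an unadjusted p under 0.05 there was 1 member, Ppp1r3c, against 1.92% of all genes, and DESeq2 also called 1 member.

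Between viruses, Ppp1r3c in VIP-treated cultures had a log2 difference of ACREB from control of -0.78 (SE 0.18). This did not pass in edgeR (adjusted p = 0.23, with the replicate number as a block 0.0598), but it did in DESeq2 (-0.79, adjusted p = 0.0128) and in edgeR with GC and length offsets plus the block (-0.81, adjusted p = 0.0172). The ratio of ACREB to control with VIP was 0.585, 0.585 and 0.576 in numbers 1, 2 and 3. With PBS the same ratio was 0.991, 0.820 and 0.787, and the log2 difference was -0.22 (edgeR adjusted p = 0.956). The VIP response with ACREB minus that with control virus, the interaction, was -0.56 for Ppp1r3c (SE 0.25, unadjusted p = 0.0432, edgeR adjusted p = 1). Taken within numbers on log2(CPM + 2), that difference was -0.75, -0.48 and -0.45 (mean -0.56 ± 0.166, SD, n = 3), below 0 in 3 of 3 numbers.

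**Figure D2:**
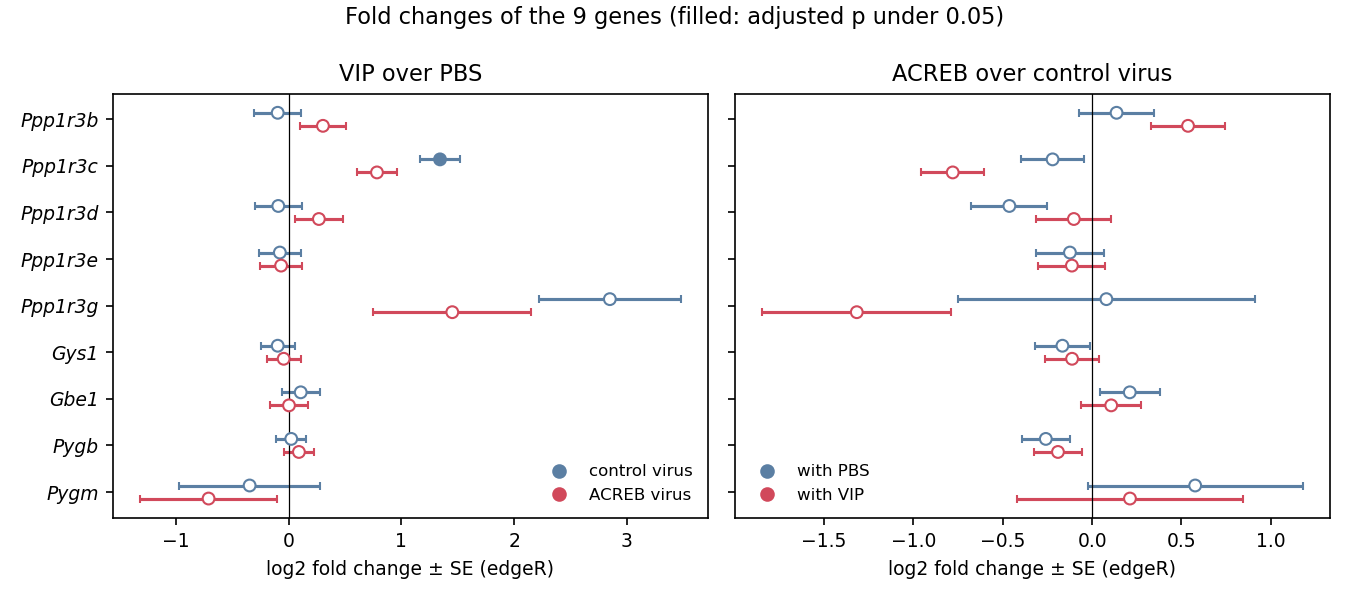
Log2 fold change ± SE from edgeR for the 9 genes, VIP over PBS in each virus (left) and ACREB over control virus in each treatment (right), with filled points for an adjusted p under 0.05. The only filled point is Ppp1r3c with VIP in control virus at 1.34, and its open points lie at 0.78 (VIP, ACREB virus) and -0.78 (ACREB over control, VIP).

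Ppp1r3g (ENSMUSG00000050423, chromosome 13, 35958839 to 35970388) encodes a subunit studied mainly in liver. It was close to the detection limit, with 91 counts over 12 libraries. The raw counts were 2, 4 and 1 in control PBS libraries 1, 2 and 3, and 26, 18 and 12 in control VIP. With ACREB they were 3, 0 and 4 with PBS and 8, 7 and 6 with VIP. Every VIP library was above every PBS library of its virus, and every ACREB VIP library was below every control VIP library.

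Summed over the 3 libraries and scaled to their depth, Ppp1r3g was 7.59 times as high with VIP as with PBS in control cultures (56 against 7 counts, exact 95% Poisson interval 3.45 to 19.7, counting error only). The edgeR log2 fold change was 2.85 (SE 0.63) and did not pass (adjusted p = 0.0979). It passed with the replicate block (2.84, adjusted p = 0.0459), with GC and length offsets (3.02, adjusted p = 0.0467) and without ACREB PBS library 2 (2.85, adjusted p = 0.0438) in edgeR, and in DESeq2 (2.93, adjusted p = 0.00943). Over the fits that left out 1 library, its edgeR adjusted p ran from 0.0438 to 0.433. Ppp1r3g entered the tests only through its control VIP counts of 12 to 26, against 8 at most in the other groups, so a high value with VIP in control virus was a condition of its being tested and these passes are a description, not support. With ACREB the ratio of VIP to PBS was 2.81 (21 against 7 counts, interval 1.15 to 7.82), and the log2 fold change was 1.45 (edgeR adjusted p = 1). ACREB over control with VIP gave a ratio of 0.395 (interval 0.227 to 0.663) and a log2 difference of -1.32 (SE 0.53, edgeR adjusted p = 0.741). Control VIP is the reference of that comparison, so the same condition favoured a low value, and this too is a description. With PBS the ratio of ACREB to control was 1.07 (interval 0.320 to 3.57), too wide to show a difference at this depth. The interaction for Ppp1r3g was -1.40 (SE 1.02, edgeR adjusted p = 1), and without ACREB PBS library 2, the library with 0 counts, it was -1.93. Control VIP enters the interaction as well, so the same limit holds there.

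Ppp1r3b (ENSMUSG00000046794, chromosome 8, 35375739 to 35388139), the subunit typical of liver, measured 6.08, 4.08 and 6.85 CPM in control PBS and 5.53, 4.35 and 6.07 CPM in control VIP. With ACREB it measured 6.33, 6.84 and 5.56 CPM with PBS and 7.13, 8.34 and 7.66 CPM with VIP. The control groups overlapped, and the ACREB VIP libraries lay above both the ACREB PBS and the control VIP libraries. The log2 difference of ACREB from control with VIP was 0.54 (SE 0.21), which did not pass in edgeR (unadjusted p = 0.0233, adjusted p = 0.68). The log2 fold change of VIP over PBS was -0.10 in control virus and 0.31 with ACREB (edgeR adjusted p = 0.876 and 1), and their difference was 0.40 (SE 0.29, adjusted p = 1).

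Ppp1r3d (ENSMUSG00000049999, chromosome 2, 178411206 to 178414472), a subunit found in many tissues, measured 5.09, 6.27 and 5.25 CPM in control PBS and 3.65, 4.30 and 4.10 CPM in ACREB PBS. Those 2 groups did not overlap, with a log2 difference of -0.46 (SE 0.21, unadjusted p = 0.0498, edgeR adjusted p = 0.941). With VIP it measured 5.12, 4.30 and 6.18 CPM in control virus and 5.67, 5.24 and 3.62 CPM with ACREB, which overlapped. Ppp1r3d did not pass for VIP in either virus (-0.09 and 0.27, edgeR adjusted p = 0.882 and 1), and the first value turned to 0.01 with GC and length offsets.

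Ppp1r3e (ENSMUSG00000072494, chromosome 14, 54872669 to 54877550), a further targeting subunit, was between 7.71 and 13.5 CPM in all 12 libraries, and its groups overlapped in every comparison. The 4 log2 differences of VIP and ACREB lay between -0.12 and -0.07 (edgeR adjusted p from 0.89 to 1). The value for VIP in control virus, -0.08, turned to 0.10 with GC and length offsets. Library 2 held the highest Ppp1r3e level of its group in all 4 groups.

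The share of Ppp1r3c in the targeting subunits' transcripts was computed per length over Ppp1r3a to Ppp1r3g. It was 66.5%, 65.5% and 71.8% in control PBS libraries 1, 2 and 3, and 87.2%, 82.0% and 83.2% in control VIP. With ACREB the share was 67.1%, 65.0% and 68.4% with PBS and 80.0%, 70.5% and 78.3% with VIP. VIP and PBS libraries did not overlap in either virus, and the ACREB VIP libraries lay below the control VIP libraries. An exact two-sided permutation test gave p = 0.1, the smallest that 3 against 3 allow, for VIP in control virus (16.2 percentage points higher), for VIP with ACREB (9.42 higher) and for ACREB with VIP (-7.87), and p = 0.8 for ACREB with PBS (-1.08). Adjusted over these 4 exact tests, the values were 0.1333 for the first 3 and 0.8. The sum of the 7 subunits was 24.7 ± 2.31 RPKM in control PBS, 50.5 ± 8.80 in control VIP, 21.6 ± 0.369 in ACREB PBS and 32.4 ± 5.37 in ACREB VIP (SD, n = 3). Ppp1r3e was the next subunit, at 14.5% to 21% of the control PBS total and 6.37% to 10.9% of the control VIP total.

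**Figure D3:**
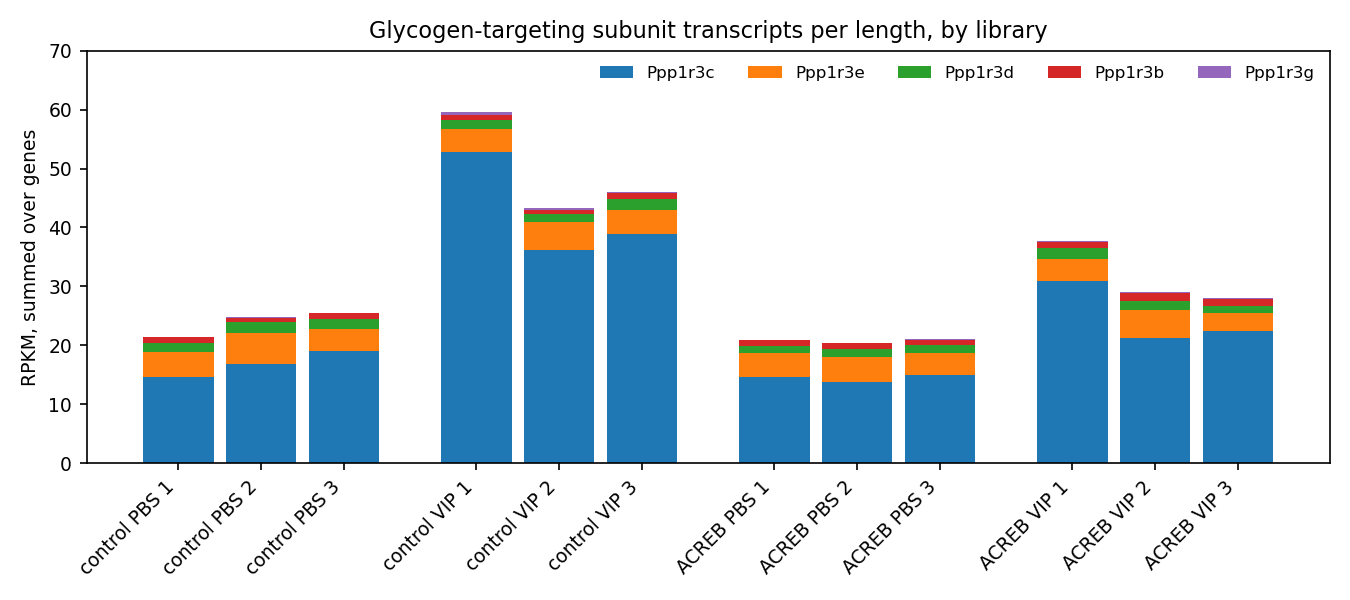
Stacked bars of RPKM for the 5 targeting subunits among the members in each of the 12 libraries. The blue Ppp1r3c portion makes most of every bar and is taller in all VIP libraries than in the PBS libraries of the same virus, and the Ppp1r3g portion is too thin to read at this scale.

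Among the enzymes, Gys1 (ENSMUSG00000003865, chromosome 7, 45434844 to 45456619) measured 41.2, 63.5 and 44.3 CPM in control PBS and 45.7, 48.4 and 45.3 CPM in control VIP. It measured 44.3, 48.3 and 40.2 CPM in ACREB PBS and 45.8, 43.0 and 40.3 CPM in ACREB VIP. Control PBS library 2 was the highest of all 12 libraries, and the groups overlapped in every comparison. The log2 fold change of VIP over PBS for this synthase gene was -0.10 in control virus (SE 0.15, edgeR adjusted p = 0.831), and it turned to 0.04 with GC and length offsets. With ACREB it was -0.04 (adjusted p = 1). Gys1 shares 310 exonic bases, 6.5% of its exonic length, with Ruvbl2 on the opposite strand, and the strand setting of the counting is not given, so its counts are uncertain.

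Gbe1 (ENSMUSG00000022707, chromosome 16, 70313949 to 70569716) measured 39.3, 23.9 and 39.0 CPM in control PBS, and between 33.3 and 42.1 CPM in each of the other 9 libraries. The value of 23.9 CPM came from control PBS library 2, and it became 37.5 CPM once the trend with GC content and length was removed, next to 36.2 and 37.9 CPM in libraries 1 and 3. This step did not bring every gene as close. In the same library Gys1 became 52.15 CPM, next to 43.51 and 43.79 CPM in libraries 1 and 3. Ppp1r3c went from 45.65 to 54.6 CPM, next to 39.86 and 52.11 CPM. For this branching enzyme gene the log2 fold change of VIP over PBS was 0.11 in control virus (SE 0.17, edgeR adjusted p = 0.828) and 0.00 with ACREB (adjusted p = 1). With GC and length offsets these values were -0.13 and -0.08.

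Pygb (ENSMUSG00000033059, chromosome 2, 150786735 to 150831758) measured 690.1, 935.7 and 676.9 CPM in control PBS and 788.0, 772.9 and 780.2 CPM in control VIP. With ACREB it measured 633.3, 720.0 and 570.7 CPM with PBS and 691.7, 711.9 and 647.5 CPM with VIP. The PBS and VIP groups overlapped in both viruses, with log2 fold changes of 0.02 and 0.09 (SE 0.14 for each, edgeR adjusted p = 0.954 and 1). ACREB VIP libraries lay below all control VIP libraries, at ratios of 0.878, 0.921 and 0.830 within numbers 1, 2 and 3. That difference was -0.19 on the log2 scale and did not pass in edgeR (unadjusted p = 0.183, adjusted p = 1), and with PBS it was -0.26 (unadjusted p = 0.0788, adjusted p = 0.956) with overlapping groups and ratios of 0.918, 0.769 and 0.843 within numbers.

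Pygm (ENSMUSG00000032648, chromosome 19, 6384399 to 6398459) had 7, 39 and 13 counts in control PBS, 13, 21 and 16 in control VIP, 14, 49 and 20 in ACREB PBS and 15, 20 and 20 in ACREB VIP. Library 2 was the highest in both PBS groups, and it remained so once the trend with GC content and length was taken out, at 1.88 and 2.88 CPM. The log2 fold change of VIP over PBS was -0.35 in control virus (SE 0.63) and -0.71 with ACREB (SE 0.61), with edgeR adjusted p of 0.851 and 1. Without both PBS libraries numbered 2, an alternative added after the data were seen, these values were 0.69 and 0.03. The summed counts gave a ratio of VIP to PBS of 0.620 with ACREB (55 against 83 counts, exact 95% Poisson interval 0.433 to 0.883), which covers counting error only and rests on ACREB PBS library 2. ACREB over control gave a ratio for Pygm of 1.5 with PBS (83 against 59 counts, interval 1.06 to 2.13), with 2.1, 1.32 and 1.7 within numbers 1, 2 and 3, and of 1.16 with VIP (interval 0.776 to 1.74). The log2 differences were 0.58 and 0.21 (edgeR adjusted p = 0.956 and 1), and the one with PBS was 1.62 without control PBS library 2 and -0.17 without ACREB PBS library 2.

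Pygb made nearly all phosphorylase transcripts per length. Its share among Pygb, Pygm and Pygl was 98.6 ± 0.408% in control PBS, 98.7 ± 0.368% in control VIP, 98.1 ± 0.388% in ACREB PBS and 98.4 ± 0.636% in ACREB VIP (SD, n = 3). The liver gene Pygl held most of the remainder, 0.861% to 2.11% over the 12 libraries, and Pygm held 0.0780% to 0.602%. Exact two-sided permutation tests of the Pygb share gave p = 0.7 for VIP in each virus, and for ACREB against control virus 0.2 with PBS and 0.6 with VIP, all 0.7 after adjustment over the 4. Within numbers the Pygb share was lower with ACREB than with control virus in 3 of 3 under both treatments. It was also higher with VIP than with PBS in 3 of 3 in control virus. An exact sign-flip test gave p = 0.25, the smallest that 3 pairs allow, for each of these, and p = 0.5 for VIP with ACREB.

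**Figure D4:**
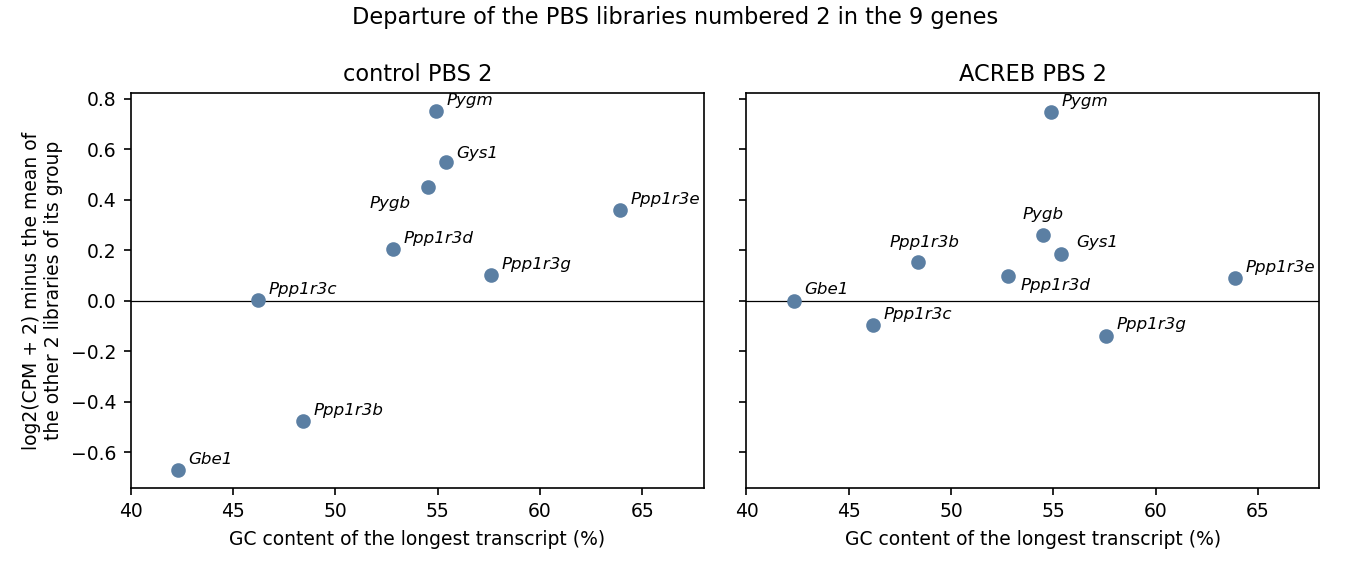
Departure of control PBS library 2 (left) and ACREB PBS library 2 (right) from the mean of the other 2 libraries of the group, as log2(CPM + 2), against the GC content of each gene's longest transcript, 1 point per gene. On the left Gbe1 at 42.3% GC lies at -0.67 and Gys1 at 55.4% GC at 0.55, with Ppp1r3c at 0.00, and on the right only Pygm departs by more than 0.3.

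Departures of control PBS library 2 differed in sign between members. There Gbe1 (42.3% GC content) and Ppp1r3b (48.4%) lay 0.67 and 0.48 below the other control PBS libraries on the log2 scale. Pygb, Pygm and Gys1, at 54.5% to 55.4%, lay 0.45, 0.75 and 0.55 above them, and Ppp1r3e (63.9%) lay 0.36 above. Ppp1r3d (52.8%) lay 0.205 above and Ppp1r3g (57.6%) 0.10 above. Ppp1r3c, whose GC content of 46.2% lies between those of Gbe1 and Ppp1r3b, departed by 0.00. Leaving this library out gave log2 fold changes of VIP over PBS in control virus of 1.34 for Ppp1r3c (edgeR adjusted p = 0.0147) and 3.49 for Ppp1r3g (adjusted p = 0.0998).

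Counted over comparisons, ACREB with PBS called 0 of the 9 members with edgeR, where 0.0358% of all genes were called, and ACREB with VIP called 0, where 0.0537% were. At an unadjusted p under 0.05 there were 1 and 3 members in these comparisons, against 5.3% and 5.69% of all genes. Ppp1r3g is among the 3, with the limit on it given above. DESeq2 called 0 and 1 of them (0.726% and 0.815% of genes), with no adjusted p for Ppp1r3g in either. DESeq2 called 2 members for VIP in control virus, Ppp1r3c and Ppp1r3g with that limit (1.53% of genes), and 1 for VIP with ACREB (0.161%). The interaction called 0 members and 0% of genes by edgeR and by DESeq2, and had 1 member at an unadjusted edgeR p under 0.05 (1.2% of genes). With the replicate block edgeR called 2 members for VIP in control virus, Ppp1r3c and Ppp1r3g, where 1.63% of genes were called, with the limit on Ppp1r3g given above. In VIP with ACREB (0.0776% of genes), ACREB with PBS (0.221%), ACREB with VIP (0.364%) and the interaction (0%), the block called 0 members.

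Groups did not overlap for 2 members with VIP in control virus (9.8% of all genes), for 3 with VIP and ACREB (6.72%), for 1 with ACREB and PBS (8.78%) and for 4 with ACREB and VIP (14% of genes). Ppp1r3g is counted for VIP in both viruses and for ACREB with VIP. The limit on it given above applies where control VIP is one of the groups compared. The median log2 fold change of the 9 members was -0.08 for VIP in control virus, beside -0.02 over all genes, and 0.09 beside 0.00 with ACREB. It was -0.12 beside 0.01 for ACREB with PBS, -0.11 beside 0.00 for ACREB with VIP, and 0.01 beside 0.01 for the interaction.

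The rest of the pathway was covered by a list of 28 further genes of glycogen metabolism and of the phosphatase, of which 26 were tested. In all 5 comparisons 0 of the 26 passed, whether in edgeR, in edgeR with the replicate block or in DESeq2. Unadjusted edgeR p-values under 0.05 were found for 1 gene in the VIP comparison of control virus (6.42% of all genes) and for 1 in the ACREB comparison of PBS cultures (5.3%). There were 0 for VIP with ACREB (1.92% of all genes), ACREB with VIP (5.69%) and the interaction (1.2%). The log2 fold changes of the 26 genes with VIP in control virus lay between -0.27 and 0.51, with a median of -0.02. The primer protein gene Gyg had a median level of 30.6 RPKM over the 12 libraries, Ugp2, which makes the glucose donor UDP-glucose, 88.9 RPKM, and Pygl 1.99 RPKM. Their log2 fold changes with VIP in control virus were -0.05, 0.06 and -0.05 (edgeR adjusted p from 0.898 to 0.961). The targeting subunit gene Ppp1r3f was at 0.783 RPKM. The muscle subunit gene Ppp1r3a, with 1 count in 12 libraries, and the liver synthase gene Gys2, with 25, were too low to test.

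Genes whose level followed that of Ppp1r3c most closely were ranked by the root mean square difference of log2(CPM + 2) over the 12 libraries. Each gene was centred on its own mean. The ranking covered 12519 tested genes with a mean of at least 2 CPM, without predicted (Gm) or RIKEN (Rik) genes and genes without a symbol. The nearest were Tubgcp3 (0.121), Pdzrn3 (0.123), Srgap1 (0.178), Zhx2 (0.178) and Tmem41a (0.181), against a spread of 0.607 for Ppp1r3c itself. Mean levels of Tubgcp3 were 67.9, 158.7, 62.4 and 100.6 CPM in control PBS, control VIP, ACREB PBS and ACREB VIP. With a pseudocount of 0.5 the same 5 genes were nearest. For Ppp1r3g the nearest were Fam160a1 (0.094), Igsf3 (0.103) and Dxo (0.104), with a spread of 0.208, but 0 of these 3 were among the nearest with the lower pseudocount, so that ranking was not stable. This likeness is a description over libraries that share groups and depth.

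**Figure D5:**
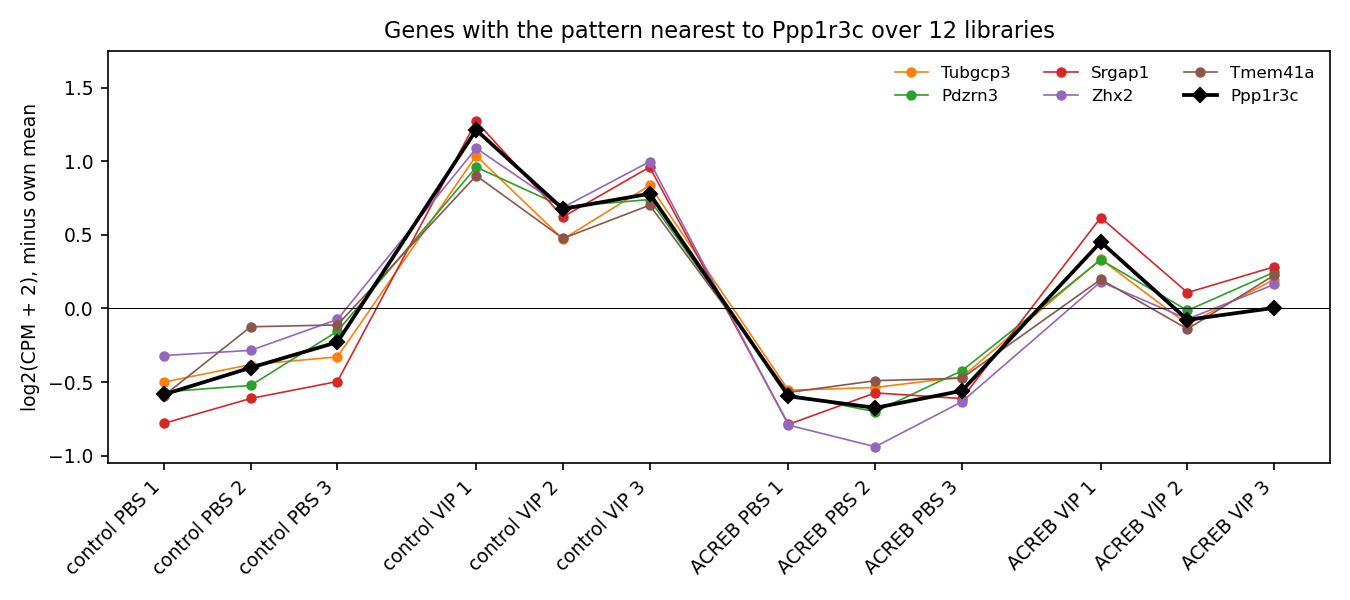
Level of Ppp1r3c (black) and the 5 genes with the most similar pattern, as log2(CPM + 2) minus each gene's own mean, in the 12 libraries. Lines join libraries only to guide the eye, and all 6 genes are highest in control VIP, with ACREB VIP between control VIP and the PBS groups.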

How the data were processed

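Gene-level raw counts, 1 column for each of the 12 libraries, were deposited by the authors. The submitters' processing notes name edgeR (no version), HTSeq 0.11.2, STAR 2.7.1a, Trimmomatic 0.39 and R 3.6.1, with GRCm38 (mm10). Neither the annotation release nor the counter's strand setting is given in the sources used here. The deposited counts went into edgeR 4.0.16 (R 4.3.3): filterByExpr kept 16761 of 55573 genes, libraries were scaled by TMM, and a quasi-likelihood model with 4 group means was fitted over all 12, with Benjamini-Hochberg adjustment and a threshold of 0.05. DESeq2 1.42.0 was an alternative. The SE of a log2 fold change is its size over the root of the F statistic, not a fitted error. CPM uses TMM-scaled library sizes, and RPKM adds the exonic length from GENCODE. The pseudocount for log2 CPM was 2. Promoters come from RefSeq (GRCm38.p6). The fit was tested on simulated counts.

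The labels number the replicates. In 18 of 18 pairs, libraries sharing a number departed from their groups in the same direction (correlations across genes 0.132 to 0.679), so the number was taken, from the data, to pair libraries. A fit with it as a block (residual degrees of freedom 6 instead of 8) was an alternative, as were RLE scaling, no filter, GC and length offsets, only the 6 libraries compared, each library left out, and a pseudocount of 0.5. The text names the 9 members, the core enzymes and paralogs of a pathway list, and the genes nearest in pattern to Ppp1r3c (5) and Ppp1r3g (3). One gene that this rule names is not reported here. Members and lists were chosen with earlier results of these data known.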

Additional observations from a re-analysis of the deposited data

How the results depend on the processing

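For VIP in control virus 1 member was past the threshold, and the count was 2 with the replicate block, with DESeq2, with GC and length offsets, with these offsets and the block, and without both PBS libraries numbered 2 (added after the data were seen). It was 0 when only the 6 libraries compared were fitted and 1 to 2 when 1 library was left out. Ppp1r3g was the added member with the block, with DESeq2 and with the GC and length offsets, under the limit on it given above. For VIP with ACREB DESeq2 called 1 member instead of 0, and for ACREB with VIP DESeq2 and the offsets with the block each called 1, Ppp1r3c. The block changed no other member's call. Over all genes, VIP in control virus gave 82 calls, 274 with the block, 257 with DESeq2, 131 without the filter, 150 with the offsets, 571 with the offsets and the block, 2 with 6 libraries and 25 to 91 with 1 library left out. The other comparisons gave 2, 6, 9 and 0 (VIP with ACREB, ACREB with PBS, ACREB with VIP, interaction), 13, 37, 61 and 0 with the block, 27, 117, 134 and 0 with DESeq2 and 40, 307, 586 and 0 with the offsets and the block. Of 889 member values under these alternatives, 75 had another sign than the value reported, none of them past the threshold in either fit. Of these, 13 came without control PBS library 2 and 13 without both PBS libraries numbered 2. With 1 library left out, the differences in the Ppp1r3c share moved by less than the spread between libraries, and the one for ACREB with PBS (-1.08 percentage points) ran from -2.27 to 0.838. The Pygb share differences did too, and those for VIP ran from -0.101 to 0.311 in control virus and from -0.0669 to 0.559 with ACREB. The smallest exact p of 3 against 3, 0.1, allows no statement on the stability of these tests. Low counts limit Ppp1r3g and Pygm, and the size of no interaction could be separated from 0 after adjustment.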
